A study of Drosophila melanogaster with 2 samples.

Results

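Peaks of the tagged Drosophila protein Rx at bidirectional promoters outside the X chromosome are described here. A bidirectional promoter is a stretch of DNA from which a gene on the plus strand and a different gene on the minus strand both start. A peak was a member when its summit, the position of highest signal, was at most 500 bp from the start of a protein-coding transcript on the plus strand and at most as far from that of a different gene on the minus strand. The rule uses position and annotation alone, and no measured height. Of 3303 peaks in the series-wide conservative list, 2607 lay on 2L, 2R, 3L, 3R and 4, and 462 of these were members (17.7%, 95% Wilson interval 16.3 to 19.2%). A further 690 peaks lay within 500 bp of a start without meeting the rule and are called one-direction promoter peaks, and 1455 lay elsewhere.

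The assay was chromatin immunoprecipitation with sequencing (ChIP-seq), which reads the DNA that comes down with a protein. There was 1 group, whole embryos of strain Rx-GFP aged 0 to 24 h, with 2 biological replicates and no second genotype or treatment. Per the labels the flies are transgenic, carry an insertion targeting Rx and make an Rx-eGFP fusion protein that was precipitated with an antibody against GFP, from chromatin sonicated to 200 to 800 bp. Every cell type of the embryo is mixed in each sample, and the promoter that drives the fusion, the number of embryos and the state of the native Rx gene are not stated in the labels. The peak lists hold no expression, so the labelled stage could not be checked against marker genes. No untagged embryos were analysed here. No file gives read counts, so depth is unknown, and intervals and p-values over peaks or promoters cover counting error within these lists, not the spread between embryo collections.

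Rx is a paired-class homeodomain transcription factor, a family whose DNA-binding domain prefers sites with a TAAT core and whose members can bind as dimers on palindromic sites. In Drosophila it is known for roles in head and brain development. Genes in compact genomes often lie head to head and share the DNA between their starts, and in flies such shared promoters frequently belong to housekeeping genes. Many fly housekeeping promoters carry the DNA replication-related element (DRE), bound by the factor Dref, whose ends hold the core word recognised by the insulator protein BEAF-32. Such promoters also carry other core promoter words, among them the one called Motif 7.

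The sequences below show the DNA under the summits that the results turn on. Taken from the members on 2L, 3L and 3R, they are the 6 highest with at least 60 bp of exon-free sequence around the summit, and the highest other members whose block holds one of the words that separated promoters with a summit from promoters without one (CG3552/CG3437 for AAATTT, Shc/Atat for TCAGTT, Arl1/brm for ACAGTG). Those at eIF1/RpL28, for the DRE, and Sptz/ninaG, for Motif 7, were chosen after their values were seen. Each block runs at most 75 bp to either side of the summit and stops at the first annotated exon. In the same order as printed they lie at 3L:5139416-5139566, 3R:29736771-29736921, 2L:13835381-13835531, 3R:15229460-15229610, 3R:27636103-27636253, 3L:2373516-2373596, 3L:9457713-9457863, 3L:9426797-9426947, 3L:15982930-15983080, 3L:3222961-3223076 and 3R:11421811-11421961. They are plus-strand sequence of the RefSeq Release 6 (dm6) genome, 5′ to 3′. Capitals mark, on either strand, the homeodomain core TAATTA, the BEAF-32 core CGATA, the DRE TATCGATA, Motif 7 CATCNCTA, the word ACAGTG, the initiator word TCAGTT and the AT-content control AAATTT. Capitals can run together where words share bases, as the homeodomain core and the BEAF-32 core do at CHMP2B/Tcs5.
CHMP2B/Tcs5: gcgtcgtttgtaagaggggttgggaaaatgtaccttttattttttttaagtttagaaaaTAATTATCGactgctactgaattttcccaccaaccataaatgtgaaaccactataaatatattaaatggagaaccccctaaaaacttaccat
CIA30/CG7601: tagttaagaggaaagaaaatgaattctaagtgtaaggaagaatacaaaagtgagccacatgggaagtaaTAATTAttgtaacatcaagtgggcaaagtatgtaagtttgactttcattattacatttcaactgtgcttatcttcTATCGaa
CenG1A/mRpS23: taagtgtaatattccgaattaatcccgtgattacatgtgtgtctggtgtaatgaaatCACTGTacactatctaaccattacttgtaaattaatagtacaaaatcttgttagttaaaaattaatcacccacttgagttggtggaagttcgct
mRpS10/Art3: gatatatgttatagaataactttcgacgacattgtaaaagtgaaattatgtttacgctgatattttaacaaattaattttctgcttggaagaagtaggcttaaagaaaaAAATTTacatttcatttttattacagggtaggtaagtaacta
Mtl/CG5611: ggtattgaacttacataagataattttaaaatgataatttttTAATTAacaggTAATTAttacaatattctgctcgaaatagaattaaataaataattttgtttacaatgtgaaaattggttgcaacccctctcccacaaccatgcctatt
CG9004/mRpL23: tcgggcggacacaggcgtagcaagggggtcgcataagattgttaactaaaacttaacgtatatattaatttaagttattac
CG3552/CG3437: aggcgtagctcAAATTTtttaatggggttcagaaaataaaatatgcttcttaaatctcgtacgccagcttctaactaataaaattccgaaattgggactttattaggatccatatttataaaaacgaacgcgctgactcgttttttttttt
Shc/Atat: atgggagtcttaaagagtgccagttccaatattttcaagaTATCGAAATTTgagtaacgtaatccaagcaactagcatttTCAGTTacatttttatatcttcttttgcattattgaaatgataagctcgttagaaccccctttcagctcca
Arl1/brm: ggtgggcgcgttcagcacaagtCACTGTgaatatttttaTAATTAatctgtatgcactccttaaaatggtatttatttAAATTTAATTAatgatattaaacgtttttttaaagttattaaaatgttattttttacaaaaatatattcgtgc
eIF1/RpL28: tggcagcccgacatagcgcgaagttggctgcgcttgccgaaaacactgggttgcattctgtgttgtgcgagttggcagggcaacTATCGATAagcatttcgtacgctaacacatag
Sptz/ninaG: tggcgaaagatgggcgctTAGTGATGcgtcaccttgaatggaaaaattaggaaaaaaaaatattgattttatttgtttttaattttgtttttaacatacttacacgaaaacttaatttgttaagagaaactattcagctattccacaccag

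The homeodomain core stood in 3 of the first 6 blocks, at CHMP2B/Tcs5, CIA30/CG7601 and Mtl/CG5611, and the BEAF-32 core in 2 of them. Over all 462 members these words were in 21.6% and 44.8% of windows of 100 bp either side of the summit, wider than the blocks. A match is a description of the letters and not a measured binding site. The block at mRpS10/Art3 held no marked word but the control, and the short one at CG9004/mRpL23 held none.

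The members stood over 446 of 2139 bidirectional promoters outside X. Such a promoter was taken as an unbroken run of positions that meet the rule, and it counted as having a summit when 1 or more lay in it. A summit lay in 20.9% of them (95% Wilson interval 19.2 to 22.6%), and in 17.0% with replicate 1's own list and 14.9% with that of replicate 2. The 446 closest pairs of starts name 892 genes. Summits were denser there than in the rest of promoter sequence. Members came at 326.2 summits per Mb over 1.42 Mb, and one-direction promoter peaks at 60.9 per Mb over 11.3 Mb, a ratio of 5.35 (exact conditional binomial test, two-sided, p = 2.17e-141, 95% interval 4.75 to 6.03). Counting only sequence within 100 bp of a start, 295 summits lay in 0.651 Mb of bidirectional and 228 in 2.38 Mb of one-direction sequence, a ratio of 4.73. Members made up 372 of 1918 peaks in replicate 1's own list (19.4%, 17.7 to 21.2%) and 326 of 1731 in that of replicate 2 (18.8%, 17.1 to 20.7%).

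The arms differed little in their share of members. There were 109 on 2L, 102 on 2R, 113 on 3L and 138 on 3R, which were 16.3 to 19.0% of the peaks of each arm, and 19.1 to 22.2% of the bidirectional promoters of each arm had a summit. On chromosome 4, none of 12 bidirectional promoters had one, and that chromosome held 3 peaks in all. On X, which the rule leaves out, 55 of 397 bidirectional promoters had a summit (13.9%, 10.8 to 17.6%). No test was made between the chromosomes.

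Member heights reached from 2.70 to 1381.7 in the authors' signal, whose scale is not stated, with a median of 104.0 and quartiles of 70.9 and 177.0. The median was 96.5 for one-direction promoter peaks and 82.6 for peaks elsewhere. Of the members, 274 of 462 stood above the median height of all peaks outside X (59.3%, 54.8 to 63.7%), against 386 of 690 one-direction promoter peaks (55.9%, 52.2 to 59.6%), a difference that did not pass the test (odds ratio 1.15, Fisher's exact test, two-sided, p = 0.274). With starts required within 250 bp in place of 500 bp, the odds ratio was 1.67 (Fisher's exact test, p = 0.000545).

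The highest member lay between CHMP2B and Tcs5 at 3L:5139374-5139629, with a signal of 1381.7, and ranked 2 among all peaks outside X. Its heights were 774.4 in replicate 1 and 613.4 in replicate 2. CHMP2B encodes a subunit of the ESCRT-III membrane remodelling complex. The next lay between CIA30, a complex I assembly factor gene, and CG7601 (3R:29736733-29736965), with 1048.4, and 580.2 and 482.1 in replicates 1 and 2. The peak at Ssl1/Chro (3L:22878786-22879018), whose summit lay outside the gap between the starts, had 970.5, and 522.2 and 445.8 in replicates 1 and 2. Ssl1 encodes a subunit of the general factor TFIIH, and Chro is a chromodomain protein gene. These 3 peaks were all higher in replicate 1.

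Mitochondrial ribosomal protein genes stood at 3 of the 12 highest members and at 13 of all 462. Of such genes with a bidirectional start 26.5% were at a member, against 21.3% of all protein-coding genes with such a start. The peak at CenG1A/mRpS23 (2L:13835336-13835583) had 957.1, that at mRpS10/Art3 (3R:15229422-15229635) 935.8 and that at CG9004/mRpL23 (3L:2373482-2373735) 862.2. CenG1A is an Arf GTPase-activating protein gene and Art3 an arginine methyltransferase gene. The remaining 6 of the 12 had signals from 751.4 to 906.8 and lay at Mtl/CG5611, CG3552/CG3437, CG8320/Pex11ab, Shc/Atat, CG12194/tank and Elp5/CG1275. Mtl encodes a Rac-family GTPase, Pex11ab a peroxisomal protein, Shc a signalling adaptor, Atat a tubulin acetyltransferase and Elp5 a subunit of the Elongator complex. All 12 were in both replicates' own lists.

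Most members recurred in the replicates. The series-wide list and its heights were themselves made from both replicates, so neither this recurrence nor the order of heights below is independent evidence. Of the 462, 341 overlapped a peak of replicate 1's own list (73.8%, against 65.2% of all peaks outside X) and 310 one of replicate 2's (67.1%, against 58.6%). Both own lists held 274 members (59.3%, against 49.7%), and these had a median height of 157.7. The 67 members in replicate 1's list alone had a median of 79.2, the 36 in replicate 2's alone 69.3 and the 85 in neither 60.3. The share in both lists was 59.3% of members and 55.5% of one-direction promoter peaks, a difference that did not pass the test (odds ratio 1.17, Fisher's exact test, two-sided, p = 0.203). With starts within 250 bp the odds ratio was 1.58 (Fisher's exact test, p = 0.00200).

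Heights in the replicates were those of the highest overlapping peak in each replicate's own ranked list, and 457 members had both. Spearman's rho across these was 0.828, given as a description, since members are not replicates and the main list was itself chosen on both. Of all 462 members, 432 had heights within a factor of 2 of each other (93.5%, 90.9 to 95.4%), with members that lack a height counted as outside it. Replicate 1 was the higher in 313 of 457, with a median log2 ratio of replicate 1 to replicate 2 of 0.20, against 0.06 for one-direction promoter peaks. The scales of the lists are not stated, so a common shift between them cannot be read as a difference in binding. Of the 50 highest members in either replicate, 39 were common to both.

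**Figure D1:**
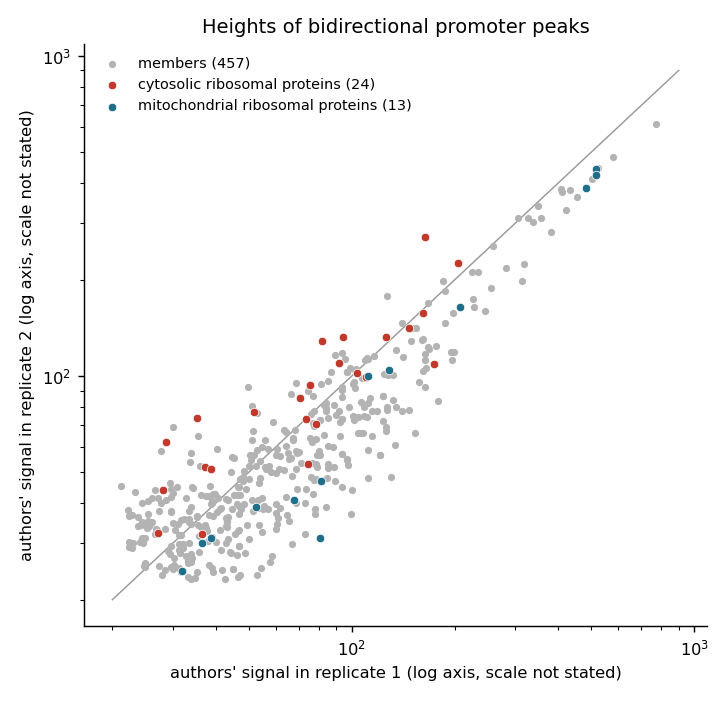
Each point is 1 bidirectional promoter peak, with the authors' signal in replicate 1 on the horizontal and in replicate 2 on the vertical log axis, and the line marks equal values. Of 457 members with both heights, 313 lie below the line. All 13 of the blue points (mitochondrial ribosomal protein genes) and 9 of the 24 red points (cytosolic ribosomal protein genes) are among them.

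Summits lay mostly in the gap between the starts. For each summit the closest plus-strand and minus-strand starts of different genes were taken, and in 453 of 462 members these pointed away from each other, while in 9 the genes overlapped at their starts. Of the 453, 380 had the summit between the starts (83.9%, 80.2 to 87.0%), and the sequence between divergent starts made up 40.5% of the sequence that meets the rule. The median distance between the starts was 289 bp, with quartiles of 221 and 381 bp. The median summit lay 127 bp upstream of the plus-strand start and 125 bp upstream of the minus-strand start. Of the 380, 197 summits were closer to the plus-strand start and 182 to the minus-strand start.

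The nearest start was 82.5 bp away in the median member, with quartiles of 44.3 and 114.8 bp, and 154.5 bp away in the median one-direction promoter peak. Most summits were upstream of their nearest start in both classes, with 83.8% of members and 81.7% of one-direction promoter peaks. Only 3 members were 300 bp or more from any start, against 139 one-direction promoter peaks. A summit between close starts cannot be far from either, so the rule itself fixes part of this difference and no test was made. Of the 73 summits of divergent pairs outside the gap, 28 lay on the transcribed side of the plus-strand start and 45 on that of the minus-strand start. Among the 12 highest, the summits at Ssl1/Chro, CG9004/mRpL23, CG8320/Pex11ab, CG12194/tank and Elp5/CG1275 were of this kind.

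**Figure D2:**
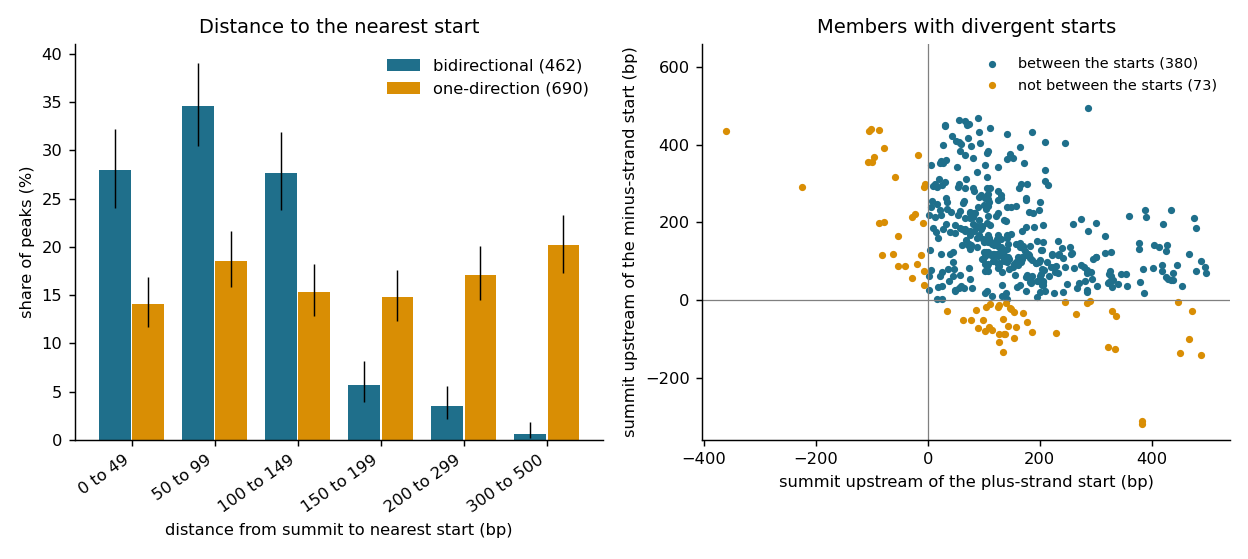
The left plot gives the share of peaks (vertical axis, percent) by distance from the summit to the nearest start in bp, for 462 bidirectional and 690 one-direction promoter peaks, with 95% Wilson intervals. The right plot gives, for 453 members with divergent starts, how far upstream of the plus-strand start (horizontal, bp) and of the minus-strand start (vertical, bp) each summit lies. The 380 summits between the starts lie above and to the right of the 0 lines of that plot.

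The share of promoters with a summit was highest where the starts were 200 to 399 bp apart. Here the starts are those closest to each other in the promoter, not those closest to the summit. By this measure 19 members lay where the genes overlapped, against 9 by the starts closest to the summit. A summit lay in 144 of 424 promoters with 200 to 299 bp between the starts (34.0%, 29.6 to 38.6%) and in 97 of 311 with 300 to 399 bp (31.2%, 26.3 to 36.5%). It was 18.4% (14.6 to 22.9%) at 0 to 99 bp, 17.5% (13.5 to 22.4%) at 100 to 199 bp, 21.1% (16.0 to 27.3%) at 400 to 499 bp, 19.8% (13.1 to 28.9%) where the genes overlapped and 6.71% (4.82 to 9.27%) at 500 bp or more. A wider gap leaves fewer positions that meet the rule, from 967.3 bp on average at 0 to 99 bp down to 302.8 bp at 500 bp or more. Per length of such sequence, the density was 470.7 summits per Mb at 200 to 299 bp and 499.9 at 300 to 399 bp, against 193.3 at 0 to 99 bp, 202.3 at 100 to 199 bp, 391.5 at 400 to 499 bp, 241.7 at 500 bp or more and 284.6 where the genes overlapped. Both replicates' own lists also had their highest share at 200 to 299 bp, with 30.7% in replicate 1 and 26.4% in replicate 2.

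Promoters were also divided by the distance between the starts, and those where the genes overlapped were placed by the size of the overlap. With promoters divided at 300 bp, 274 of 1098 under it had a summit (24.95%), against 172 of 1041 at or over it (16.5%; odds ratio 1.68, Fisher's exact test, two-sided, p = 1.58e-06). This test takes no account of length, and the qualifying sequence averaged 859.1 bp per promoter under 300 bp and 454.5 bp at or over it. Per length the direction was the other way, with 297.9 summits per Mb under 300 bp (281 members) and 382.6 per Mb at or over it (181 members). Divided at 200 bp the direction turned (odds ratio 0.827, Fisher's exact test, p = 0.119), since the highest shares lie between.

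**Figure D3:**
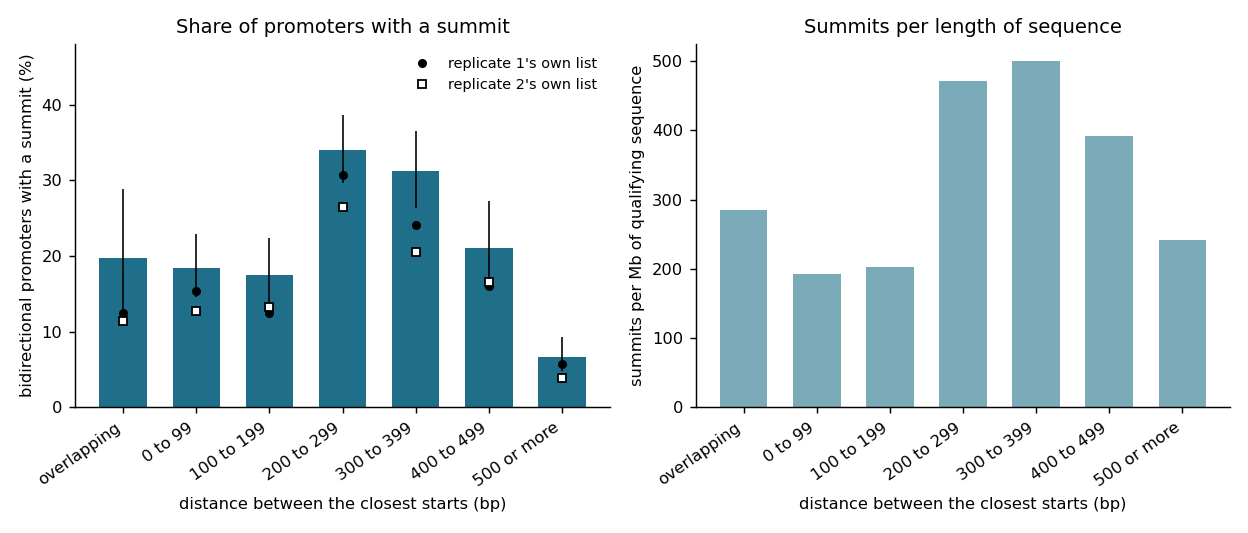
Both plots have the distance between the closest starts in bp on the horizontal axis. The left plot gives the share of bidirectional promoters with a summit in percent (bars, with 95% Wilson intervals) and the same share with each replicate's own list (points), highest at 200 to 299 bp with 34.0%, and the right plot gives summits per Mb of sequence that meets the rule, highest at 300 to 399 bp with 499.9.

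Of the promoters, 16 had 2 summits and none had more. In 11 of these 16 the summits lay 199 to 214 bp apart, closer than the width of 284 bp that most peaks share, and the lower peak had a median signal of 13.6 against 151.9 for the higher. Examples are sds22/Brf, with 177.2 and 2.70, and tral/sti, with 151.9 and 3.14. In the remaining 5 the summits lay 357 to 519 bp apart, as at CG5098/CG5757, with 666.7 and 68.7, and at RpL23/CG13531, with 115.4 and 80.9. Where 2 close summits overlapped the same peak of a replicate's list, both were given that peak's height.

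Narrow peaks had the higher signals in both promoter classes. Most members had a common width of 284 bp, and the 83 narrower ones had a median signal of 295.4, against 90.0 for the others. Among one-direction promoter peaks the medians were 296.6 for the narrower ones and 86.0 for those of the common width. At the limit of the rule, the members just inside it were mthl14/E(bx), CG33229/pyx and aph-1/Snx21, whose farther start was 495, 496 and 498 bp away and whose signals were 46.5, 94.7 and 79.4. The peaks just outside it were those at ome/CG43121, CG5112/Gnpat and Cpsf100/beta4GalNAcTB, at 502, 509 and 511 bp, with 52.4, 94.1 and 83.4. Heights on either side of the limit overlapped.

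The BEAF-32 core, the DRE and Motif 7 were more frequent under members than under one-direction promoter peaks. In this and the later comparisons of the 2 classes, windows were not matched for distance to a start. The nearest start was 82.5 bp away in the median member and 154.5 bp in the median one-direction promoter peak. How far this adds to the differences in words was not tested. Both strands were searched for 19 words within 100 bp of each summit on either side, and 9 of them differed past the threshold (47.4%), 8 of them higher in members and 1 lower, with 12 at an unadjusted p under 0.05. The BEAF-32 core CGATA was in 207 of 462 members (44.8%) and 29.1% of one-direction promoter peaks (odds ratio 1.97, adjusted p = 1.16e-06 by Fisher's exact test). The DRE TATCGATA, which always holds that core, was in 39 members (8.44%), against 4.20% (odds ratio 2.10, Fisher's exact adjusted p = 0.0104). Motif 7, CATCNCTA, was in 50 members (10.8%), against 4.20% (odds ratio 2.77, adjusted p = 0.000147 by Fisher's exact test). With starts required within 250 bp, Motif 7 passed, while the BEAF-32 core and the DRE did not. Over 12 alternatives the odds ratio was 1.22 to 2.29 for the BEAF-32 core and 1.06 to 4.23 for the DRE. At least 1 of these 3 words was in 226 members (48.9%), against 30.9% of one-direction promoter peaks, and 168 members had the core without a DRE. Of the other words known from housekeeping promoters, M1BP (4.98% of members against 2.90%, Fisher's exact adjusted p = 0.118) and Motif 6 (6.71 against 3.91%, 0.0617) did not pass. The printed blocks of eIF1/RpL28 and Sptz/ninaG show a DRE and a Motif 7.

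The GAGA word GAGAGAG, bound by the GAGA factor Trl, was the 1 word that was lower. It was in 4 members (0.866%) and in 6.52% of one-direction promoter peaks (odds ratio 0.13, adjusted p = 6.44e-06 by Fisher's exact test). In replicate 1's own list it was in 0.538% of peaks at bidirectional promoters and 6.43% at one-direction promoters, and in replicate 2's own list in 0.613% and 7.13%. The highest of the 4 members with it was mask/Spase22-23.

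AT-rich words, among them the homeodomain words, were also more frequent in members. The homeodomain core TAATTA was in 100 members (21.6%), against 14.6% of one-direction promoter peaks (odds ratio 1.61, adjusted p = 0.00977 by Fisher's exact test). The paired-class P2 dimer, TAAT and ATTA separated by any 2 bases, was in 21 members (4.55%), against 1.74% (odds ratio 2.69, Fisher's exact adjusted p = 0.0161), and the P3 dimer, the same words separated by any 3 bases, in 17 (3.68%), against 2.61%, which did not pass (odds ratio 1.43, Fisher's exact adjusted p = 0.407). The TATA box word TATAAA was in 40.3% of members, against 31.3% (odds ratio 1.48, adjusted p = 0.00947 by Fisher's exact test). The AT-content controls AAATTT and TTTAAA, which stand for no factor, were in 35.3 and 40.3% of members, against 27.8 and 32.5% (odds ratios 1.41 and 1.40, adjusted p = 0.0161 for each by Fisher's exact test). Member windows had a median GC content of 34.6%, against 36.8% in one-direction windows.

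In windows of 30 to 40% GC alone, a comparison chosen after the data were seen, 3 of the 19 words passed. They were the BEAF-32 core (43.9% of members against 29.5% of one-direction promoter peaks), Motif 7 (11.4 against 3.62%) and GAGA (1.14 against 5.85%). The homeodomain core was then in 24.6% of members and 17.3% of one-direction promoter peaks (odds ratio 1.56, adjusted p = 0.102 by Fisher's exact test). With windows narrowed to 50 bp on each side, none of the 19 words passed.

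The other 10 words did not pass. They were the core promoter words M1BP (GGTCACAC), Motif 6 (GTATTTTT), the E-box CAGCTG, the initiator TCAGTT and the downstream promoter element AGACGTG, the CTCF-like word GTGGCGC, the Zelda word CAGGTAG, the P3 dimer, and ACAGTG and ACACTG, which earlier results of these data had picked out. ACAGTG was in 18.6% of members and 19.1% of one-direction promoter peaks (odds ratio 0.97, adjusted p = 0.878 by Fisher's exact test).

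**Figure D4:**
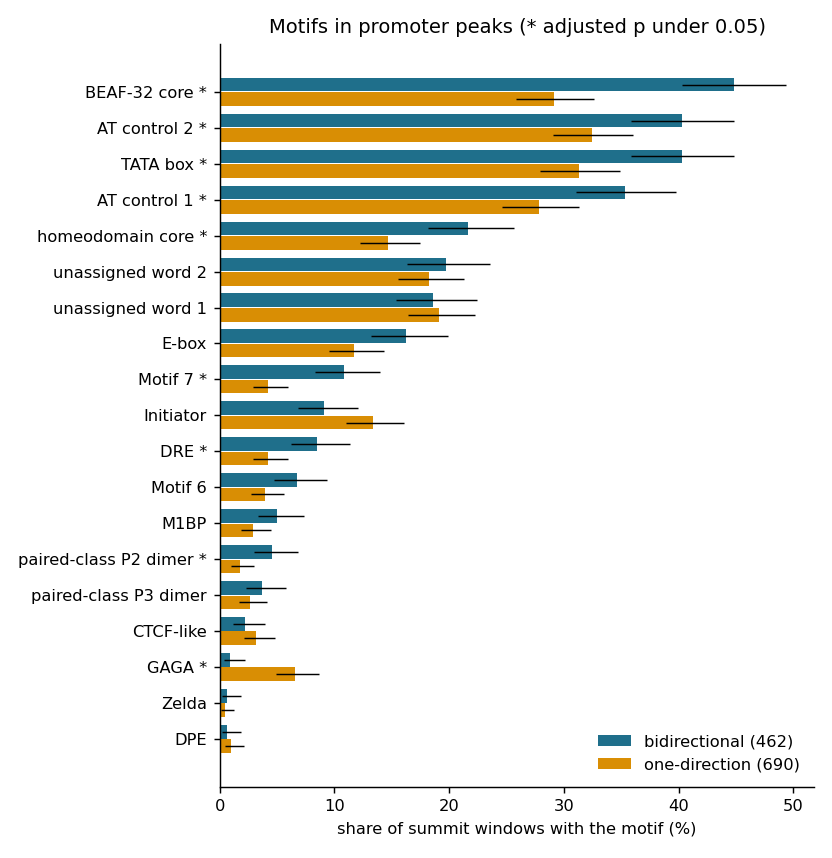
The horizontal axis gives the share of summit windows that hold each of 19 words, in percent, in 462 bidirectional (upper bar) and 690 one-direction promoter peaks (lower bar), with 95% Wilson intervals. The 9 words with an asterisk passed the test, and GAGA is the 1 among them with the longer lower bar. The words ACAGTG and ACACTG are drawn as unassigned words 1 and 2.

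Over all 2080 words of 6 bases, 21 differed past the threshold (1.01%), 12 higher and 9 lower in members, with 268 at an unadjusted p under 0.05. CGATAG was in 22.5% of members and 10.4% of one-direction promoter peaks (adjusted p = 8.55e-05 by Fisher's exact test), TATCGA in 25.8 and 14.8% (0.00207) and ATCGAT in 19.3 and 10.4% (0.00763), and all of these share bases with the BEAF-32 core or the DRE. The other 9 higher words held only A and T. Among the lower ones, GAGAGA was in 3.46% of members and 11.7% of one-direction promoter peaks (Fisher's exact adjusted p = 0.000243) and ACTGAG in 3.25 and 10.1% (0.00207). No 6-base word passed in windows of 30 to 40% GC or with windows narrowed to 50 bp on each side.

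Promoters with a summit were also set against bidirectional promoters without one, in windows 100 bp either side of the midpoint of the closest starts, which do not depend on the summit. Of the 19 words, 3 passed (15.8%), 2 higher and 1 lower, with 8 at an unadjusted p under 0.05. The word ACAGTG was in 66 of 446 promoters with a summit (14.8%), against 9.45% of 1693 without (odds ratio 1.66, adjusted p = 0.0166 by Fisher's exact test). Earlier results of these data had picked this word out, so its call is no independent evidence. The initiator word TCAGTT was in 9.64%, against 15.6% (odds ratio 0.58, Fisher's exact adjusted p = 0.0166). The control AAATTT was in 37.9%, against 30.4% (odds ratio 1.40, adjusted p = 0.0189 by Fisher's exact test). These windows had a median GC content of 31.8% in promoters with a summit and 33.8% in those without. With replicate 1's own list none of these 3 calls held, with that of replicate 2 the control alone did, and in windows of 30 to 40% GC, with 197 promoters with a summit and 646 without, none did. The odds ratios of ACAGTG were 1.49, 1.54 and 1.39 in these comparisons (Fisher's exact adjusted p = 0.115, 0.0846 and 0.425), and those of the initiator word 0.61, 0.60 and 0.49 (Fisher's exact adjusted p = 0.0601, 0.0591 and 0.0797). These windows hold both starts only where the starts lie at most 200 bp apart. The share of promoters with a summit differed with that spacing, for which the main comparison was not matched. Among promoters with 200 to 499 bp between the starts ACAGTG passed, with 15.2% of those with a summit and 8.60% of those without (odds ratio 1.90, Fisher's exact adjusted p = 0.0350). The initiator word did not pass there, with 8.83% against 12.6% (odds ratio 0.67, Fisher's exact adjusted p = 0.318). Nor did the control AAATTT, with 41.0% against 38.2% (odds ratio 1.12, Fisher's exact adjusted p = 0.809). The TATA box word, in 46.0% and 39.8% (adjusted p = 0.0761 by Fisher's exact test), passed in windows of 30 to 40% GC, with 46.7% of promoters with a summit and 34.98% of those without (odds ratio 1.63, Fisher's exact adjusted p = 0.0315), and with replicate 1's own list, with 48.6% and 39.5% (odds ratio 1.45, Fisher's exact adjusted p = 0.0298).

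Of the 9 words that differed between members and one-direction promoter peaks, the control AAATTT was the 1 that also passed here. The BEAF-32 core was in 39.5% of promoters with a summit and 39.7% of those without (odds ratio 0.99, adjusted p = 1 by Fisher's exact test), and in 39.6% of all 2139. The DRE was in 5.61%, against 8.56% (odds ratio 0.63, Fisher's exact adjusted p = 0.0926), and in 7.95% of all. Motif 7 was in 6.95%, against 4.43% (odds ratio 1.61, adjusted p = 0.0926 by Fisher's exact test), and in 4.96% of all. The homeodomain core was in 26.2%, against 21.3% (odds ratio 1.31, Fisher's exact adjusted p = 0.0926), and in 22.3% of all, and the P3 dimer in 5.38%, against 2.89% (odds ratio 1.91, Fisher's exact adjusted p = 0.0761). None of these 5 words passed the test, which does not show that the shares are alike. In windows of 30 to 40% GC alone the homeodomain core did pass, with 27.9% of promoters with a summit and 17.8% of those without (odds ratio 1.79, Fisher's exact adjusted p = 0.0315). Among promoters with divergent starts 200 to 499 bp apart Motif 7 did, with 6.71% against 2.30% (odds ratio 3.05, Fisher's exact adjusted p = 0.0350). Both of these subsets were chosen after the data were seen. With replicate 1's own list the homeodomain core was in 25.3% against 21.7%, and with that of replicate 2 in 26.0% against 21.7%. Neither difference passed (Fisher's exact adjusted p = 0.254 and 0.230). Over 11 alternatives the homeodomain core passed in 4 and Motif 7 in 5.

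Of the 17 gene lists, cytosolic ribosomal proteins had the most genes at members. Of 4347 protein-coding genes outside X with a start in a bidirectional promoter, 924 were at a member (21.3%), and the lists are read against that share, with no test. Both genes of a promoter share its peak, so they are not counted independently. The lists were chosen with earlier results of these data known.

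Of 46 cytosolic ribosomal protein genes with such a start, 24 were at a member (52.2%), and their median height was 161.9. The peaks of 18 of these 24 genes were in replicate 1's own list and those of 22 in that of replicate 2. Most of these genes encode proteins of the cell's main ribosomes. RpL7, which shares its promoter with Ripalpha (2L:10200951-10201135), had 444.9, with 163.2 in replicate 1 and 271.5 in replicate 2. RpS27, paired with the nuclear pore gene Nup37, had 427.4, with 203.9 and 224.9 in replicates 1 and 2. Replicate 1 was the higher at 9 of the 24 genes, with a median log2 ratio of replicate 1 to replicate 2 that was -0.25.

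Mitochondrial ribosomal protein genes, which encode the ribosome of the organelle, were at a member for 13 of 49 (26.5%), with a median height of 131.3. Replicate 1 was the higher at all 13, with a median log2 ratio of 0.32 and a range of 0.15 to 1.37. At mRpL34/Dg, chosen after its values were seen, the heights were 80.8 in replicate 1 and 31.2 in replicate 2, the highest ratio of replicate 1 to replicate 2 in the list. The contrast between these lists in the replicates was picked out after its values were seen and was not tested, and the range over the 24 cytosolic genes, -1.12 to 0.67, overlaps that of the mitochondrial ones.

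Genes of the transcription machinery followed. Of 39 genes of RNA polymerase II, its general factors and Mediator, 13 were at a member (33.3%), led by Polr2H, a polymerase subunit gene (259.3), and MED30, a Mediator subunit gene (213.1). Of 10 genes of insulator and promoter-binding factors, 5 were. Their highest were Chro (970.5) and Cp190, an insulator protein gene (219.4). The other 3, named after their values were seen, were Dref (126.0), which shares its promoter with RpL13, pzg (115.5) and M1BP (74.6). Dref binds the DRE and M1BP the M1BP word. A link between these words and the peaks at the genes of the factors was not tested. The peak at Dref was in both replicates' own lists, and that at M1BP was in neither. Of 14 genes of the Polycomb and trithorax groups, whose products keep genes off or on through cell divisions, 4 were (28.6%), with brm, the Brahma remodelling ATPase gene, at 544.0 and E(z), the histone methyltransferase gene, at 199.4.

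The lists of other basic functions lay on both sides of the 21.3%. Nuclear pore genes were at a member for 5 of 15 (33.3%), led by Nup37 and Nup98-96 (131.1), and aminoacyl-tRNA synthetase genes for 6 of 20, led by SerRS (185.0) and GluProRS (174.1). Vesicle traffic genes were for 11 of 49 (22.4%), led by the coat protein gene alphaCOP (252.6) and Vps33B (219.6), and oxidative phosphorylation genes for 7 of 35, led by the complex I genes ND-MWFE (234.1) and ND-51 (137.9). Proteasome subunit genes were for 4 of 23 (17.4%), led by Rpn3 (135.6), and splicing genes for 4 of 26 (15.4%), led by Sf3b6 (140.4). DNA replication and repair genes were for 4 of 29 (13.8%), led by PolD2, a polymerase delta subunit gene (333.9), and translation factor genes for 3 of 24 (12.5%), with eIF1 (280.0) and eIF3h (197.2). Mitochondrial import genes were for 2 of 3, Tom7 (139.9) and Tim10 (47.6).

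Lists of tissue-restricted genes held almost no member. Few of these genes start in a bidirectional promoter at all. None of 13 cuticle protein genes with such a start was at a member, and 1 of 24 odorant, gustatory and ionotropic receptor genes was, Ir60e (72.3), whose peak was in replicate 2's own list alone. Of 32 head, eye and neural regulators, 2 had a bidirectional start and neither was at a member.

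**Figure D5:**
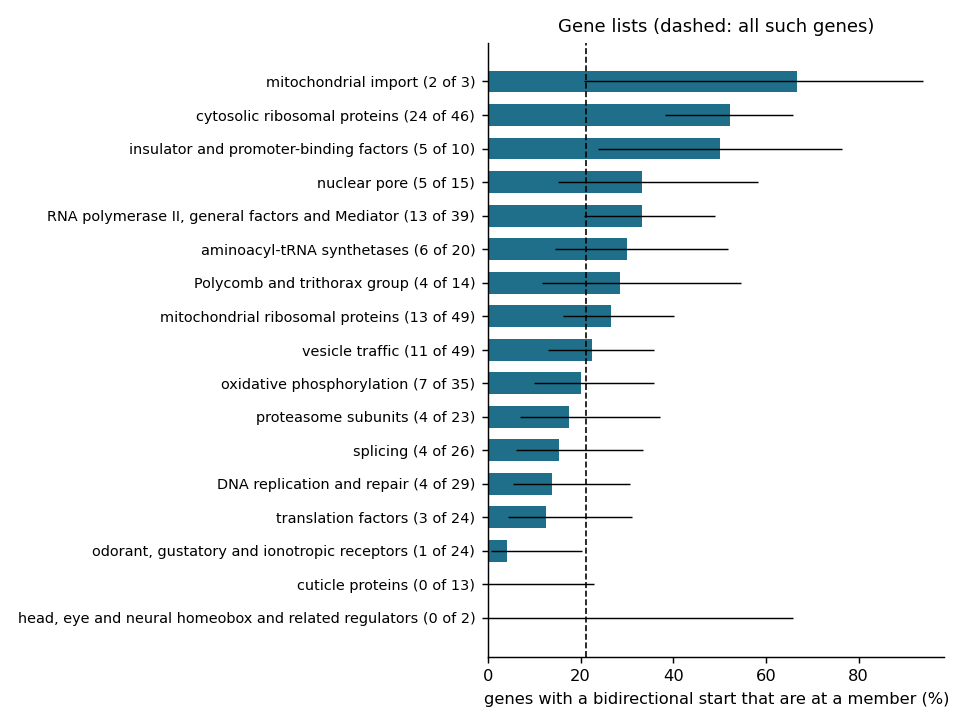
Each bar is the share, in percent, of a list's genes with a bidirectional start that are at a member, with counts in the labels and 95% Wilson intervals. The dashed line is the share over all 4347 such genes, 21.3%. Cytosolic ribosomal protein genes, with 24 of 46, lie to its right, and both the cuticle and the head, eye and neural lists are at 0.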

How the data were processed

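Peaks were measured by ChIP-seq in 2 samples of 1 group. Each peak list gives a signal value per peak, deposited by the authors on dm6 per the labels; its scale, the peak caller and the aligner used are not given in the sources. The other column used, deposited by the authors in bp and not normalized, gives the summit's distance from the peak start. The lists were thresholded or ranked on the irreproducible discovery rate (IDR), per the file names. Signals were used only to describe and rank peaks, and as a ratio between replicates. Depth is unknown.

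Starts were those of protein-coding transcripts in Ensembl release 115 (BDGP6.54), and sequence was the RefSeq Release 6 genome, whose arm lengths hold every peak. Python 3.11.15 with NumPy 2.4.6, pandas 2.3.3 and SciPy 1.17.1 was used, and figures were drawn with matplotlib 3.10.9. A peak was in a replicate's list with at least 1 bp of overlap. Classes were compared with Fisher's exact test, two-sided, and rates with the exact conditional binomial test. Benjamini-Hochberg adjustment ran over the 19 motifs or 2080 6-base words, with a threshold of 0.05. Calculations were tested on simulated data. The members, the 17 gene lists, the motifs and the tests were chosen with earlier results of these data known.

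Genes named are the pairs of the 12 highest members, up to 2 genes with the highest member in each list, promoters with 2 summits, the 3 peaks on each side of the 500 bp limit, and the highest member for a motif past the threshold; others are said to be chosen later. The values of 1 promoter are not reported here. Alternatives were the series-wide list not called conservative, the own list of each replicate, the higher 50% of peaks by signal, start distances of 250 and 1000 bp, 1 start per gene, windows of 50 and 200 bp, summits within 50 bp of each other as the overlap criterion, a spacing limit of 200 bp and, chosen after seeing the data, windows of 30 to 40% GC, summits upstream of every start, 1 peak per site, sequence within 100 bp of a start, and starts 200 to 499 bp apart.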

Additional observations from a re-analysis of the deposited data

Results flagged for a closer look

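A summit in both replicates' own thresholded lists, with none in the series-wide conservative list, was found at 3 bidirectional promoters outside X. The comparisons above count these promoters as having no summit. At CG11168/sud1 the heights of the highest overlapping peaks in the ranked lists were 43.3 in replicate 1 and 21.8 in replicate 2, and the other series-wide list has a summit there. At Cpsf100/beta4GalNAcTB they were 40.1 and 41.8, and there the summit of the series-wide list lay 511 bp from the farther start, just past the limit. In all, 31 of the 1693 promoters without a member had a summit in replicate 1's own list and 21 in that of replicate 2. No untagged embryos were analysed here, so no background level could be set beside these counts.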

How the results depend on the processing

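Of 84 values recomputed under an alternative, 50 kept their direction and their side of the threshold, or stayed near the value reported. For motifs and 6-base words this compares the number of calls alone, and the words called could differ. Between promoters with and without a summit, the 2 motifs called in windows of 30 to 40% GC count as kept. Neither was called in the main comparison. Shares of peaks that are members were 18.8 to 19.4% with a replicate left out, 21.0% for the 50% of peaks with the highest signal, 10.8% with starts within 250 bp and 22.3% within 1000 bp. Shares of bidirectional promoters with a summit were 14.9 to 17.0% with a replicate left out, 12.8% for the highest 50% of peaks and 16.9% at 250 bp. Summits between the starts were 79.9% at 1000 bp and 77.3% with 1 start per gene. At 250 bp the odds ratios for height (1.67) and for presence in both own lists (1.58) passed the test. The ratio of summit rates was 3.49 to 6.04 over its 8 alternatives, all past the threshold. The odds ratio for spacing was 1.62 to 2.35 but for the limit of 200 bp, which reversed it (0.827). These odds ratios take no account of the unequal qualifying length (859.1 bp under 300 bp against 454.5 bp), and the density per Mb on either side of 300 bp ran the other way.

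Of the 19 motifs, 5 differed between the classes with 1 start per gene, 0 in windows of 50 bp and 3 in windows of 30 to 40% GC, with 6 to 8 for a replicate left out. Motif 7 and GAGA passed in 11 of 12 alternatives, the BEAF-32 core and the homeodomain core in 10, and DRE in 7. The BEAF-32 core and the DRE were not among the motifs that passed at 250 bp. Between promoters with and without a summit, 1 motif passed with either replicate left out, 7 with the other series-wide list, 0 for the highest 50%, 1 at 250 bp, 8 at 1000 bp, 5 with 1 start per gene, 5 in windows of 50 bp and 6 in windows of 200 bp. The 6-base words were 5 to 7 with a replicate left out, 0 for the highest 50%, 7 at 250 bp, 7 with 1 start per gene, 0 in windows of 50 bp, 143 in windows of 200 bp, 0 in windows of 30 to 40% GC and 8 for summits upstream of every start. The cause of these changes was not tested, beyond the fewer peaks or bases that some settings leave. With 1 group of 2 samples and no read counts, the spread between embryo collections and the depth cannot be assessed.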
